A study of Mus musculus with 14 samples.

Results

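The 31 genes described here encode components, regulators and receptors of the complement system. They were matched by symbol to a list, and no measured value enters that rule. The list holds 7 genes of the classical pathway, 5 of the lectin pathway, 4 for C3 and the alternative pathway, 6 of the terminal pathway, 7 regulators and 2 receptors. All 31 were in the liver count table of 19660 genes and 30 of 31 were in the kidney count table of 20203 genes, where C8b had no row. RNA was sequenced from liver and kidney of adult male mice 12 weeks old. Every mouse in every group, controls included, carried a human angiotensinogen (AGT) transgene of the -6A haplotype. Mice without the transgene were not analysed here, so the diet was compared on this background only. The promoter region of the transgene, the number of founder lines, the mouse strain, the salt content of the diet and its duration are not given in the sources used here. The 4 groups were liver on the normal diet (4 libraries), liver on high salt (4 libraries), kidney on the normal diet (3 libraries) and kidney on high salt (3 libraries). The labels list them as separate samples without saying that each came from its own animal, so every p-value measures the spread between these samples only.

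Complement is a cascade of blood proteins that marks and lyses microbes and damaged cells. Antibody bound by C1q starts the classical pathway, sugars bound by mannose-binding lectins or ficolins start the lectin pathway, and spontaneous turnover of C3 feeds the alternative pathway. All of them cut C3 and then C5, after which C6, C7, C8 and several copies of C9 assemble into the membrane attack complex. Hepatocytes make most circulating complement proteins, many of them as acute phase proteins, whereas tissue macrophages make C1q and properdin and fat cells make factor D.

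Levels are given as counts per 1000000 counts of the library (CPM), scaled within each tissue by the trimmed mean of M-values (TMM). Liver libraries held 37267778 to 51487382 counts and kidney libraries 16046094 to 22004927. The tissue labels were borne out by defining genes, since the liver libraries held 31702 to 85152 CPM of albumin (Alb) and the kidney libraries 1006 to 1839 CPM of uromodulin (Umod). Some libraries stood apart. Mitochondrial transcripts took 2.30% and 2.06% of the counts in normal diet liver libraries 1 and 2, and 11.3% to 29.6% in the other liver libraries. High salt liver columns 5 to 8 match no sample title and are called HS5 to HS8. HS5 and HS6 differed by a median of 0.085 on the log2 scale over 28 complement genes, against 0.15 to 0.59 for the other same-diet liver pairs. Normal diet liver library 4 held 109531 CPM over 29 acute phase genes, against 16947 or more in the other normal diet libraries and 12292 to 15097 on high salt. A list of 10 neutrophil genes, 8 of them in the table, summed to 57.6 CPM in that library, where the lowest normal diet library had 1.46 and the high salt libraries 1.83 to 2.71.

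The sequences upstream of some members named in the liver result are shown first, so that related genes can be seen together. All of these members had a negative log2 fold change in liver, and differences between related genes were not tested. These are the C9 gene (chromosome 15, 6445327 to 6498751, plus strand), the neighbouring C8b and C8a genes on chromosome 4 (104766317 to 104804548, plus strand, and 104815679 to 104876398, minus strand), the paralogs Mbl1 (chromosome 14, 41151458 to 41159601) and Mbl2 (chromosome 19, 30232942 to 30239687), and C3 (chromosome 17, 57203970 to 57228136, minus strand). Each run below is the 250 bases before the RefSeq transcript start on GRCm38.p6, written 5′ to 3′ on the strand of the gene. The windows are chr15:6445096-6445345 (+) for C9, chr4:104766067-104766316 (+) for C8b, chr4:104876399-104876648 (−) for C8a, chr14:41151206-41151455 (+) for Mbl1, chr19:30232678-30232927 (+) for Mbl2 and chr17:57228137-57228386 (−) for C3. Capitals mark a match to a C/EBP motif in C9 and C3, a match to a STAT motif in C8a, and the longest run that Mbl1 and Mbl2 share.
C9: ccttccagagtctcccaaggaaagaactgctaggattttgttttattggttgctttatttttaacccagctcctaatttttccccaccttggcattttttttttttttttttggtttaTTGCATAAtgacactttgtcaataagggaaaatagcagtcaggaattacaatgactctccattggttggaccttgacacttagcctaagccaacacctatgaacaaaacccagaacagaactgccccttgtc
C8b: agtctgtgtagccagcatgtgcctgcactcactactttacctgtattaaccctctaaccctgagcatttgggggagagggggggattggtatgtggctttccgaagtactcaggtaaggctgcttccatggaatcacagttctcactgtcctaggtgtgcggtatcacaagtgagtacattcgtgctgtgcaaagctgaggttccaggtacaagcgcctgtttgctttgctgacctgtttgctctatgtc
C8a: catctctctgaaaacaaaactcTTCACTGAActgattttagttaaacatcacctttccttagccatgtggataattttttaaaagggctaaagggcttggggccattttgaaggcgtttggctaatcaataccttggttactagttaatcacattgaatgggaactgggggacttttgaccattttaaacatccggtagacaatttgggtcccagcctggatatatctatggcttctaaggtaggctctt
Mbl1: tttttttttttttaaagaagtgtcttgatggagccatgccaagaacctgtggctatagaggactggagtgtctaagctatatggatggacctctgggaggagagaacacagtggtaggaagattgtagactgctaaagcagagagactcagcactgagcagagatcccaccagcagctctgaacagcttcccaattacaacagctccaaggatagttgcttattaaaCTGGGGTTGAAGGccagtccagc
Mbl2: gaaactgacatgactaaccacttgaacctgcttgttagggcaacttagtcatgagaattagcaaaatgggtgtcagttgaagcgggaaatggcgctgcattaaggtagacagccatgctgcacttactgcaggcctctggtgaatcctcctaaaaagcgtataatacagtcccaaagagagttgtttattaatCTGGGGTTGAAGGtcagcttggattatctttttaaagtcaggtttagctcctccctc
C3: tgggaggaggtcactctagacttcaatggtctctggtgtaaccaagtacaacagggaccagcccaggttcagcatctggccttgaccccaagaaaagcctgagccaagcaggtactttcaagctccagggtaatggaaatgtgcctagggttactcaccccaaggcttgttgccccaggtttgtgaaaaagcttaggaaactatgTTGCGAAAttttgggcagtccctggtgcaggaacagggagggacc

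RefSeq start windows, from 250 bases before to 50 bases after the start, were found for 23 of the 31 members (25 windows). The C/EBP motif TTGCNNAA was searched on both strands and lay in 10.8% of all 32851 windows and in 4 of the 25 member windows, those of C1ra, C1s1, C3 and C9. Its match in C9 is TTGCATAA, 132 bases before the start, and in C3 it is TTGCGAAA, 45 bases before the start. The STAT motif TTCNNNGAA lay in 8.30% of all windows and in 4 member windows, of C1ra, C8a, Masp2 and Vtn, with TTCACTGAA 228 bases before the start of C8a. The HNF1 motif GTTAATNAT was found in 0.801% of all windows and in those of C4bp and Hc, where it lay 64 and 77 bases before the start. No member window held the NF-kB motif GGGANTTCC (1.68% of all windows) or the HNF4 motif CAAAGTCCA (0.475% of all windows). The run CTGGGGTTGAAGG of 13 bases lay 23 bases before the start of Mbl1 and 57 bases before that of Mbl2, and was in 3 of all windows. C8b and C8a shared no run longer than 7 bases (ATTTGGG, in 3.38% of windows). These are matches of letters, and no binding was measured.

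In liver, complement transcripts lay lower on high salt than on the normal diet as a group, and 1 of them, C9, passed the threshold. C9 encodes the pore-forming protein of the membrane attack complex. The fit was edgeR's quasi-likelihood test across all 15130 genes tested, with Benjamini-Hochberg adjusted p-values called under 0.05. Cfd was too low to be tested, which left 30 members. Over all genes tested, 1.00% were called and 0.410% were called lower. The log2 fold change was below 0 in 29 of 30 members, against 52.0% of all genes, and only Masp1 lay higher (0.17, SE 0.22). At an unadjusted p under 0.05, 14 members were lower and none higher, against 11.3% of all genes lower. That count was 6 without HS8 (8.02% of all genes lower), 8 without HS5 (6.88%) and 8 without HS6 (6.72%). It was 8 with HS5 and HS6 summed as 1 sample (6.87%) and 7 with all 14 libraries of both tissues in 1 fit (8.61%). Other settings gave more, with 16 after removal of mitochondrial genes (11.6%), 16 of 31 tested without normal diet libraries 1 and 2 (8.75%) and 17 with DESeq2 (10.4%). Every high salt library lay below every normal diet library in 8 members, C1ra, C2, Mbl1, Masp2, C8b, C9, Vtn and Clu, against 5.68% of all genes. The median log2 fold change was -0.48 over the members and -0.023 over all genes. DESeq2, run as an alternative, called 4 members, C9 (adjusted p = 1.29e-06), C8b (0.00199), Mbl1 (0.00284) and Clu (0.0403), all lower, out of 1084 called among 19567 genes (5.54%). Complement genes share regulators and cell sources, so these counts do not stand for independent genes. In RNA from whole tissue, fewer cells of a type and less RNA per cell cannot be told apart.

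**Figure D1:**
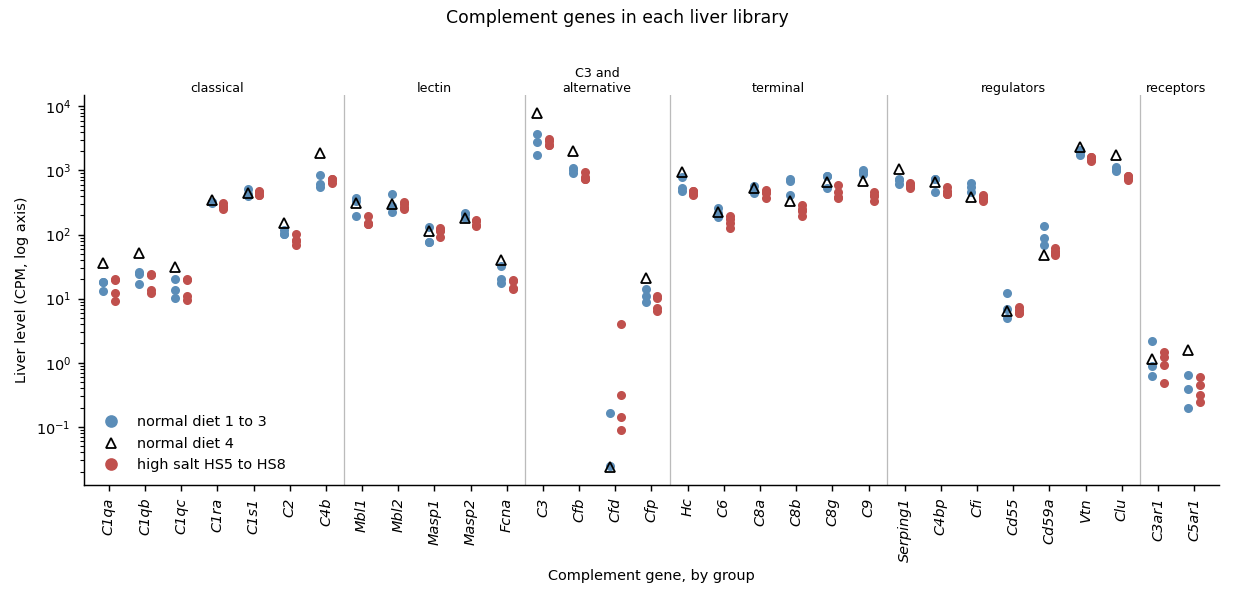
Level of each complement gene (CPM, log axis) in the 8 liver libraries, with the genes grouped by pathway; blue circles are normal diet libraries 1 to 3, open triangles normal diet library 4 and red circles high salt libraries, and the 0 of Cfd in normal diet library 3 is not drawn. The triangle lies above all other libraries for C3, C4b, Cfb, Clu and the C1q genes, and below the other normal diet libraries for C8b, C9, Cfi and Cd59a.

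The lowest fold changes of single members, those of C8b and C9, lay in the terminal pathway. C9 read 1036, 960, 872 and 682 CPM in normal diet libraries 1 to 4, and 417, 393, 470 and 332 CPM in HS5 to HS8. All 4 high salt libraries lay below all 4 normal diet libraries. C9 fell by 1.13 on the log2 scale (SE 0.19, edgeR adjusted p = 0.0386), from a mean of 888 ± 153 to 403 ± 57.0 CPM (SD, n = 4 each). The call was lost without normal diet library 1 (adjusted p = 0.0988), normal diet library 2 (0.0947), HS5 (0.159), HS6 (0.166) or HS8 (0.131), with HS5 and HS6 summed as 1 sample (0.164), and with all 14 libraries of both tissues in 1 fit (0.0825). The fold change itself stayed between -1.24 and -1.05 over all 8 such omissions.

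C8 is made of an alpha, a beta and a gamma chain, encoded by C8a, C8b and C8g, and it anchors the complex in the membrane. C8b read 688, 730, 418 and 337 CPM on the normal diet, and 249, 231, 292 and 198 CPM on high salt. The groups did not overlap, but the normal diet libraries were split between the pair 1 and 2 and the pair 3 and 4. The log2 fold change of C8b was -1.15 (SE 0.26, adjusted p = 0.0702), and it was called without normal diet library 4 (-1.33, adjusted p = 0.0347) or without library 3 (-1.26, adjusted p = 0.0414). Those fits called 2.68% and 4.94% of all genes, and they left out the lowest normal diet values of C8b. Of the 8 omissions of 1 library, 2 called C8b, and the edgeR adjusted p reached 0.245. Without normal diet libraries 1 and 2, those with few mitochondrial transcripts, C8b was at -0.66 (adjusted p = 0.185) and C9 at -0.97 (adjusted p = 0.0952). C8a, which lies next to C8b in the opposite orientation, read 487, 442, 581 and 528 CPM on the normal diet and 488, 447, 466 and 378 CPM on high salt. These ranges overlapped, with a log2 fold change of -0.19 (SE 0.17, adjusted p = 0.532). Within a library the counts of C8b were 1.11 ± 0.50 times those of C8a on the normal diet and 0.544 ± 0.055 times on high salt. The lowest normal diet ratio (0.638) was close to the highest high salt ratio (0.626). The ratio of C9 to C8a was 1.77 ± 0.44 on the normal diet, against 0.905 ± 0.069 on high salt. C8g read 529 to 831 CPM on the normal diet and 377 to 598 CPM on high salt, with overlap through HS7 (-0.64, SE 0.22, adjusted p = 0.164). Hc, which encodes C5, read 533, 486, 801 and 949 CPM on the normal diet and 486, 437, 481 and 420 CPM on high salt. HS5 and normal diet library 2 were nearly equal, and libraries 3 and 4 were the highest (-0.60, SE 0.25, adjusted p = 0.202). C6, which binds C5b first, read 213, 187, 263 and 225 CPM against 194, 174, 129 and 152 CPM, with overlap of HS5 and library 2 (-0.45, SE 0.18, adjusted p = 0.202). Of the 6 terminal members, 1 was called and 5 reached an unadjusted p under 0.05, all lower, with a median log2 fold change of -0.62. Over all genes tested, 1.00% were called, 11.3% were lower at an unadjusted p under 0.05, and the median was -0.023. Counts by pathway, here and below, are from the fit of all liver libraries only.

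**Figure D2:**
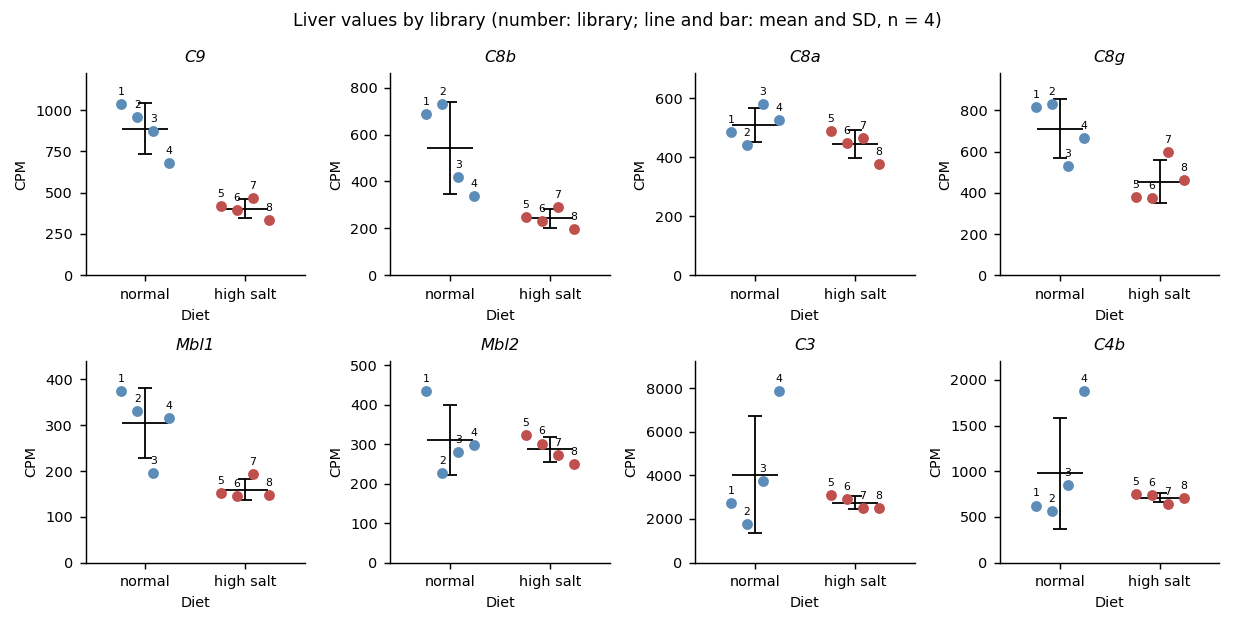
Liver level in CPM (axes from 0) of C9, the C8 chains, the mannose-binding lectins, C3 and C4b by diet; each point is a library with its number, and the line and bar are the mean and SD (n = 4). C9, C8b and Mbl1 do not overlap between diets, C8a, C8g and Mbl2 do, and the normal diet mean of C3 and C4b is set by library 4 (7859 and 1874 CPM).

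The lectin pathway was uneven. Mbl1 and Mbl2 encode the A and C forms of mannose-binding lectin, which recognise sugars on microbes. Mbl1 read 374, 331, 196 and 316 CPM on the normal diet and 151, 145, 194 and 148 CPM on high salt. The groups were separated by only 196 against 194 CPM, the lowest normal diet library against HS7. Its log2 fold change was -0.92 (SE 0.21, adjusted p = 0.0740), and it was called without normal diet library 3 (-1.09, adjusted p = 0.0217), in the fit that called 4.94% of all genes. That fit left out the lowest normal diet value of Mbl1. Of the 8 omissions of 1 library, only 1 called it, and the edgeR adjusted p reached 0.254. Mbl2, whose upstream window shares the run of 13 bases with Mbl1, read 433, 227, 281 and 298 CPM against 323, 301, 272 and 249 CPM. All high salt values lay inside the normal diet range (-0.11, SE 0.21, adjusted p = 0.795). The ratio of Mbl1 to Mbl2 was 1.02 ± 0.33 on the normal diet, against 0.564 ± 0.114 on high salt, with overlapping ranges. Masp2, the protease that cuts C4 and C2 in this pathway, lay at 183 to 219 CPM on the normal diet and 134 to 172 CPM on high salt without overlap (-0.38, SE 0.15, adjusted p = 0.194). Its exons overlap those of Tardbp on the opposite strand, and the strand setting of the counting is not stated. Masp1, a partner protease, was at 76.0 to 133 and 92.9 to 125 CPM. The ficolin gene Fcna, expressed by macrophages, read 17.3 to 40.4 CPM on the normal diet and 14.4 to 19.7 CPM on high salt (-0.71, SE 0.28, adjusted p = 0.190), and its fold change was -0.46 without library 4. None of the 5 lectin members was called, and 3 reached an unadjusted p under 0.05, all lower. Of all genes tested, 1.00% were called and 11.3% were lower at an unadjusted p under 0.05.

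C3, the protein on which all pathways converge, had the highest mean CPM of the members in liver, although Vtn (1947) was above it in normal diet library 2. It read 2749, 1763, 3737 and 7859 CPM on the normal diet, and 3078, 2913, 2522 and 2508 CPM on high salt. Library 4 held 2.10 times the highest other normal diet library, and the high salt values lay inside the range of the others. The log2 fold change was -0.56 (SE 0.42, adjusted p = 0.460) with library 4 and 0.0046 (SE 0.27, adjusted p = 0.992) without it. Cfb encodes factor B, the protease of the alternative C3 convertase. It read 1095, 1021, 924 and 2004 CPM against 779, 735, 943 and 740 CPM. HS7 overlapped normal diet library 3, and library 4 was again the highest. Its log2 fold change was -0.66 (SE 0.28, adjusted p = 0.212) and -0.33 (SE 0.17, adjusted p = 0.224) without library 4. Cfp, which encodes properdin, the stabiliser of that convertase, lay at 8.82 to 20.9 and 6.32 to 11.0 CPM (-0.67, SE 0.30, adjusted p = 0.232), and its fold change was -0.38 (adjusted p = 0.330) without library 4. Cfd, encoding factor D, was nearly absent from liver, with 0 to 6 counts in the normal diet libraries and 5 to 15 in HS5 to HS7, against 226 counts (3.96 CPM) in HS8. It was left out of the liver diet test, and the fat cell gene Adipoq had no row in the liver table.

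In the classical pathway the genes made by hepatocytes and by macrophages are both represented. C1qa, C1qb and C1qc lie side by side on chromosome 4 and encode the chains of C1q, the antibody-binding subunit. C1qa read 18.0, 13.3, 18.3 and 36.5 CPM on the normal diet and 19.7, 20.1, 9.24 and 12.4 CPM on high salt. For all 3 genes library 4 was the highest and HS7 the lowest. The log2 fold changes were -0.49, -0.68 and -0.33 for C1qa, C1qb and C1qc (adjusted p = 0.439, 0.307 and 0.638), and -0.10, -0.27 and 0.052 without library 4. The Kupffer cell gene Clec4f was also highest in library 4 and lowest in HS7. It read 41.3, 41.5, 61.5 and 70.0 CPM on the normal diet and 53.7, 49.9, 24.01 and 30.1 CPM on high salt. The macrophage gene Adgre1 was instead highest in library 3 and lowest in HS8, at 4.86, 3.86, 8.10 and 6.08 CPM against 7.57, 7.53, 4.55 and 2.92 CPM. Over 10 macrophage genes the summed level was 160 to 305 CPM on the normal diet and 120 to 234 CPM on high salt, highest in library 4 and lowest in HS8. The part of macrophage number in the C1q values was not tested.

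C1ra and C1s1 encode the proteases of C1. C1ra lay at 306 to 350 CPM on the normal diet and 255 to 306 CPM on high salt, a separation of 306.1 against 305.8 CPM (-0.22, SE 0.15, adjusted p = 0.404). C1s1 was nearly level, at 444 ± 46.7 against 439 ± 34.4 CPM (SD, n = 4 each; -0.014, SE 0.16, adjusted p = 0.970). C2, the protease of the classical C3 convertase, read 103, 120, 101 and 149 CPM against 81.9, 78.4, 100.4 and 69.6 CPM, without overlap (-0.52, SE 0.19, adjusted p = 0.169). Its exons overlap those of Gm20547, a locus that runs on the same strand through C2 and Cfb, so reads of these genes may have been divided between them. C4b encodes C4 and read 624, 561, 845 and 1874 CPM against 750, 738, 644 and 710 CPM. Library 4 held 2.22 times the next normal diet library, and the log2 fold change went from -0.47 (SE 0.37, adjusted p = 0.483) to 0.074 (SE 0.19, adjusted p = 0.814) without it. C4a is a near copy of C4b, and the authors' estimation may divide reads between both. C4b counts were 12.6 to 16.5 times those of C4a on the normal diet and 8.96 to 10.5 times on high salt.

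Regulators limit the cascade in plasma or on host cells. Clu, encoding clusterin, which blocks insertion of the terminal complex, read 1122, 1045, 992 and 1765 CPM on the normal diet and 823, 810, 750 and 708 CPM on high salt. The diets did not overlap, and without library 4 the log2 fold change went from -0.67 (SE 0.23, adjusted p = 0.162) to -0.44 (SE 0.16, adjusted p = 0.116). Vtn encodes vitronectin, another plasma inhibitor of that complex, and had the highest level per kilobase of exon among the members. Its values were 2082, 1947, 1752 and 2345 CPM against 1617, 1615, 1457 and 1412 CPM, without overlap (-0.41, SE 0.19, adjusted p = 0.253). Cd59a, a membrane-bound inhibitor of C9 assembly, read 87.4, 134, 68.0 and 48.6 CPM against 55.4, 51.3, 62.2 and 48.6 CPM. Library 4 was here level with the lowest high salt library, and the log2 fold change was -0.62 (SE 0.27, adjusted p = 0.217) with it and -0.82 (SE 0.22, adjusted p = 0.0728) without it. Without normal diet library 2, which held the highest value, it was -0.32 (adjusted p = 0.500). Cfi, the protease that destroys C3b and C4b, read 638, 546, 459 and 380 CPM against 384, 354, 418 and 331 CPM, with library 4 inside the high salt range (-0.43, SE 0.19, adjusted p = 0.225). C4bp, its cofactor, read 733, 726, 459 and 653 CPM against 475, 436, 556 and 437 CPM, with normal diet library 3 at the level of high salt (-0.43, SE 0.20, adjusted p = 0.246). Serping1, the inhibitor of C1 and the lectin proteases, read 743, 700, 609 and 1045 CPM against 601, 573, 646 and 527 CPM (-0.40, SE 0.21, adjusted p = 0.304). Its ranges overlapped through HS7, and the fold change was -0.21 (adjusted p = 0.384) without library 4. Cd55, the membrane-bound factor that dissociates C3 convertases, was low at 4.97 to 12.1 and 5.93 to 7.43 CPM (-0.23, SE 0.27, adjusted p = 0.637). None of the 7 regulators was called, and 3 reached an unadjusted p under 0.05, all lower. The shares of all genes tested were 1.00% called and 11.3% lower at an unadjusted p under 0.05.

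The receptors for the released fragments C3a and C5a, C3ar1 and C5ar1, are carried by myeloid cells and were scarce in liver. C3ar1 lay at 0.611 to 2.15 CPM on the normal diet and 0.478 to 1.48 CPM on high salt. C5ar1 read 0.388, 0.194, 0.654 and 1.57 CPM against 0.451, 0.592, 0.312 and 0.245 CPM. Its log2 fold change was -0.83 (SE 0.59, adjusted p = 0.437) and -0.034 (SE 0.49, adjusted p = 0.968) without library 4.

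Library 4 was thus the highest of all 8 liver libraries in 15 of the 30 members tested (50%), against 15.8% of all genes tested. These were C1qa, C1qb, C1qc, C1ra, C2, C4b, Fcna, C3, Cfb, Cfp, Hc, Serping1, Vtn, Clu and C5ar1. In 5 members, Masp2, C8b, C9, Cfi and Cd59a, it was the lowest of the normal diet libraries. The acute phase genes Saa1, Orm1 and Lcn2 read 15868, 6463 and 2783 CPM in it. In the other liver libraries they reached at most 394, 1888 and 4.27 CPM. For each of these genes the other normal diet libraries also lay above every high salt library. Saa1 read 72.8 to 394 CPM in those normal diet libraries, against 16.2 to 43.4 CPM on high salt. Orm1 read 1138 to 1888 CPM against 577 to 838 CPM. Leaving out library 4 therefore did not remove the difference between the diets in these genes. Without library 4, 26 members were lower and 4 higher, 10 were lower at an unadjusted p under 0.05, and the member median was -0.33 against -0.0021 over all genes. That fit put 15.2% of all genes lower at an unadjusted p under 0.05. It called 409 of 15270 genes (2.68%), C8b and C9 among them. Over 10 hepatocyte genes the summed level was 56373 to 83414 CPM on the normal diet and 93293 to 110840 CPM on high salt, which follows Alb (31702 to 50501 and 67204 to 85152 CPM). Without Alb the other 9 summed to 24671 to 37331 CPM and 25688 to 27132 CPM, and 6 of the 10 genes had a lower mean on high salt. All 31 members together took 1.19% to 2.17% of the counts on the normal diet (1.56% ± 0.43, SD, n = 4) and 1.13% to 1.40% on high salt (1.30% ± 0.12, SD, n = 4). The part of the acute phase difference between libraries in the diet differences was not tested.

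**Figure D3:**
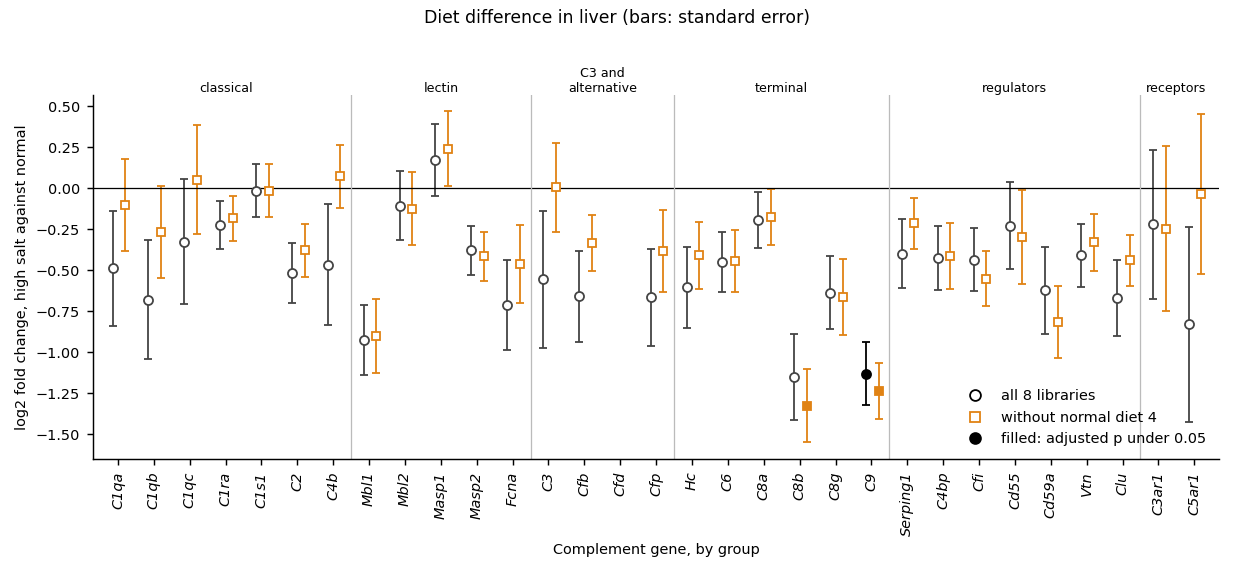
Log2 fold change in liver, high salt against normal diet, with its standard error for each complement gene from all 8 libraries (circles) and without normal diet library 4 (orange squares); filled symbols have an adjusted p under 0.05. C3, C4b and C1qc cross 0 without the library, while C9 and C8b move down to -1.24 and -1.33.

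Among 30 further genes of the complement system, 25 had a row in the liver table, of which C1rb and Cr2 were too low to be tested. None of the tested genes was called, against 1.00% of all genes, so no result is read from that count. Among those with a mean of at least 50 counts and an unadjusted p under 0.05, the membrane protein gene Susd4 was lower on high salt (-0.45, SE 0.14, adjusted p = 0.130). The collectin genes Colec10 (0.91, SE 0.38, adjusted p = 0.211) and Colec11 (0.60, SE 0.23, adjusted p = 0.184), whose products bind sugars as the mannose-binding lectins do, lay higher. Colec10 read 10.6, 15.3, 28.7 and 10.4 CPM on the normal diet and 42.3, 39.3, 23.0 and 17.6 CPM on high salt, and these ranges overlapped.

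In kidney no complement gene was called between the diets. Of the 15847 genes tested with edgeR, 0 (0%) were called, and 2.01% had an unadjusted p under 0.05. Of the 24 members tested, 0 had an unadjusted p under 0.05, 13 lay higher on high salt and 11 lower, and the median log2 fold change was 0.071 against -0.025 over all genes. DESeq2 called 13 genes in all and no member. The standard errors ran from 0.19 for C2 to 0.91 for Cfd, so a p that misses the threshold does not show equal levels. Mbl2, Fcna, Hc, C6, C4bp and Vtn were too low to be tested, with 5 to 20 counts in their highest library. C8b had no row in the kidney counts, and the authors' deposited normalized kidney values list it at 0 in 5 libraries and at 5.71 in normal diet library 2.

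Cfb was the most abundant member in kidney, at 188, 173 and 188 CPM on the normal diet and 185, 174 and 242 CPM on high salt (0.13, SE 0.21, adjusted p = 1.00). Clu read 126.5, 78.1 and 73.9 CPM against 86.6, 63.8 and 92.4 CPM, and Cd59a 47.3, 88.1 and 97.4 CPM against 51.5, 75.0 and 58.4 CPM. Both ranges overlapped. C1ra was the member with the smallest unadjusted p (0.0524), at 10.3, 10.6 and 8.55 CPM on the normal diet and 13.2, 11.9 and 14.9 CPM on high salt. It lay higher on high salt without overlap (0.45, SE 0.20), as did C2 (9.62 to 12.4 against 12.9 to 13.2 CPM; 0.22, SE 0.19). C3ar1 lay lower without overlap, at 2.07 to 2.13 against 1.21 to 1.69 CPM (-0.46, SE 0.30). The share of all kidney genes without overlap was not counted, so no result is read from the non-overlap of these members. C3 read 3.32, 10.5 and 6.09 CPM against 7.28, 6.69 and 14.3 CPM (0.51, SE 0.45). C8a read 25.6, 11.5 and 11.7 CPM against 18.5, 18.4 and 21.8 CPM. C8g and Mbl1 were low in normal diet library 1 (5.19 and 2.27 CPM) and high salt library 1 (5.62 and 2.19 CPM), against at least 12.6 and 5.46 CPM elsewhere. The proximal tubule gene Kap was lowest in the same pair of libraries, at 20106 and 28489 CPM, against 36391 to 55576 CPM in the others. Kap is 1 of 8 genes of a kidney tubule list and made up most of its sum in that pair (25574 and 33003 CPM). The other genes of that list are not reported here.

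The other kidney members are given by pathway. Of the regulators, Serping1 read 22.5 to 31.4 CPM on the normal diet and 27.1 to 40.0 CPM on high salt, Cd55 24.4 to 32.0 and 23.7 to 32.3 CPM, and Cfi 1.66 to 3.09 and 2.28 to 3.12 CPM. Of the classical members, C1s1 lay at 13.4 to 28.3 and 23.0 to 23.4 CPM, and C4b at 2.37 to 3.49 and 2.05 to 5.19 CPM. C1qa ran from 3.53 to 7.68 and from 4.31 to 8.29 CPM, C1qb from 5.24 to 8.17 and from 3.93 to 10.3 CPM, and C1qc from 3.43 to 5.03 and from 3.31 to 6.42 CPM. High salt library 3 was the highest of the 6 for all of the C1q genes, C4b, C3, Cfb and Serping1. The macrophage list, with 7 of 10 genes in the kidney table, summed to 46.4 to 161.6 CPM on the normal diet and 59.7 to 87.3 CPM on high salt. Masp1 (1.01 to 1.79 CPM over all libraries), Masp2 (0.182 to 1.00), Cfp (0.302 to 1.22), C9 (0.453 to 1.75) and C5ar1 (0.182 to 0.604) were near the lower limit of testing. All of these ranges overlapped between the diets.

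A few kidney values are set beside markers of other cells. Cfd read 1.36, 5.65 and 0.967 CPM on the normal diet and 5.54, 2.75 and 0.364 CPM on high salt. The fat cell gene Adipoq read 0.907, 5.12 and 0.483 CPM and 4.15, 1.88 and 0.364 CPM, so both genes placed all 6 libraries in the same order. Fabp4, the most abundant gene of the fat cell list, did not follow this order, at 35.1, 110 and 84.9 CPM on the normal diet and 88.7, 83.97 and 63.3 CPM on high salt. Over 6 fat cell genes the summed level was 36.7 to 120 CPM on the normal diet and 63.8 to 97.1 CPM on high salt. The highest counts of Vtn (16), C4bp (20), Hc (7), Mbl2 (7) and C9 (30) all lay in normal diet library 2, whereas C6 peaked in normal diet library 3 (16 counts) and Fcna in high salt library 1 (5 counts). Normal diet library 2 also had the highest Alb (35.5 CPM, against 2.72 to 10.9 CPM in the others) and Apoa1 (2.91 against at most 0.982 CPM). The hepatocyte list gene Serpina1c instead peaked in high salt library 2. All 10 hepatocyte genes summed to 654 to 1195 CPM on the normal diet, highest in library 1. On high salt they summed to 771 to 1072 CPM, highest in library 3. C9 had 28 counts in high salt library 3, where Alb was at 5.01 CPM. The part of other cells in these kidney values was not tested.

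**Figure D4:**
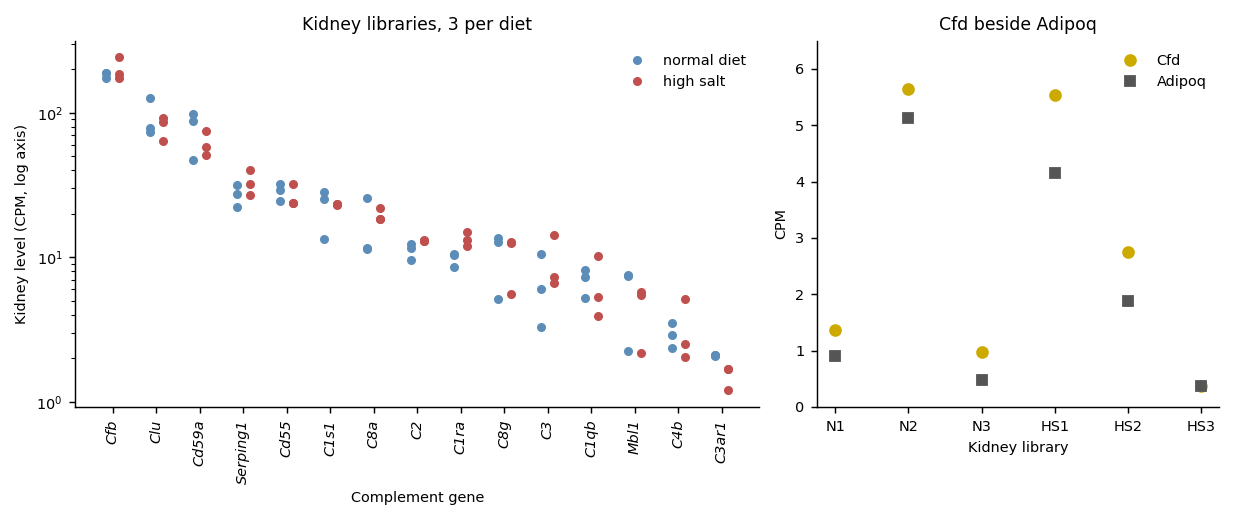
Left, kidney level of 15 complement genes (CPM, log axis) in the 3 normal diet (blue) and 3 high salt (red) libraries; right, Cfd and the fat cell gene Adipoq in CPM in each kidney library (N normal diet, HS high salt). Cfb is highest at 173 to 242 CPM, and Cfd and Adipoq are both highest in normal diet library 2 and lowest in high salt library 3.

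Whether the diet difference itself differed between liver and kidney was tested as an interaction in 1 edgeR fit of all 14 libraries. Of the 16633 genes tested 0 (0%) were called, 10.1% had an unadjusted p under 0.05, and DESeq2 called 142 genes, none a member. Of the 23 members tested within both tissues, 2 had an unadjusted p under 0.05, which is no excess over the 10.1% of all genes. These were C1ra (-0.66, SE 0.25, adjusted p = 0.415) and C2 (-0.72, SE 0.26, adjusted p = 0.391). Their estimates were lower in liver than in kidney, but a difference between the tissues was not shown. Cfd and C4bp also reached an unadjusted p under 0.05, but each entered this fit only through the tissue where it is high. Their values rest on near-zero counts in the other tissue, and went from 4.21 to 1.56 for Cfd without HS8 and from 2.51 to 0.10 for C4bp without kidney normal diet library 2. For C9 the difference was -0.92 (SE 0.55, adjusted p = 0.579), so the lower C9 in liver was not shown to differ from kidney. The diet difference of C8b could not be compared.

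On the normal diet most members were far higher in liver than in kidney. Levels per kilobase of exon, each scaled within its tissue, are used to compare genes. Vtn led in liver at 1001 ± 123 CPM per kilobase (SD, n = 4), followed by C3 at 783 ± 521, C8g at 476 ± 95.4, Cfb at 446 ± 177, Clu at 358 ± 105 and C9 at 347 ± 59.7. Of these neighbours, C3 overlapped every other one in range, since its libraries ran from 343 to 1528 CPM per kilobase. Vtn lay above C8g, Cfb, Clu and C9 in every library, and the ranges of these 4 overlapped. In kidney the order was Cfb at 64.7 ± 3.04 (SD, n = 3), Cd59a at 42.9 ± 14.7, Clu at 27.0 ± 8.50, Serping1 at 11.7 ± 1.93, C1s1 at 7.14 ± 2.51 and C8g at 7.05 ± 3.11. Cfb stood above the next gene in every library, while Cd59a and Clu overlapped, as did C1s1 and C8g. Kidney took 0.0467% to 0.0750% of its counts from the 30 members with a row.

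In the fit of all 14 libraries, liver minus kidney on the normal diet, 32.9% of the 16633 genes were called higher in liver and 32.2% higher in kidney. Of the 23 members tested within both tissues, 19 were called higher in liver and 1, Cd55, higher in kidney. Mbl2, Fcna, Hc, C6, C4bp and Vtn entered this fit only through liver and Cfd only through kidney, so their calls follow from the filter and no size is given for them. The largest log2 differences among the 23 were 10.3 for C9 and 9.77 for C3. They were smaller for Cfb (3.32, SE 0.32), Clu (4.27, SE 0.33) and the C1q genes (2.49 to 2.72). The C8 chains were unlike in kidney, where C8a ran from 11.5 to 25.6 CPM and C8g from 5.19 to 13.7 CPM while C8b had no row. Cd55 was higher in kidney (-1.38, SE 0.25, adjusted p = 0.000174). Cd59a (0.67, SE 0.32, adjusted p = 0.0796), C5ar1 (0.82, SE 0.61, adjusted p = 0.248) and C3ar1 (-0.29, SE 0.42, adjusted p = 0.566) were not called. Upper quartile scaling moved the median of all genes from 0.024 to -0.28 and left the calls of the 23 members tested within both tissues unchanged. Tissue was confounded with the separate deposition of the tables, and their part cannot be told apart.

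**Figure D5:**
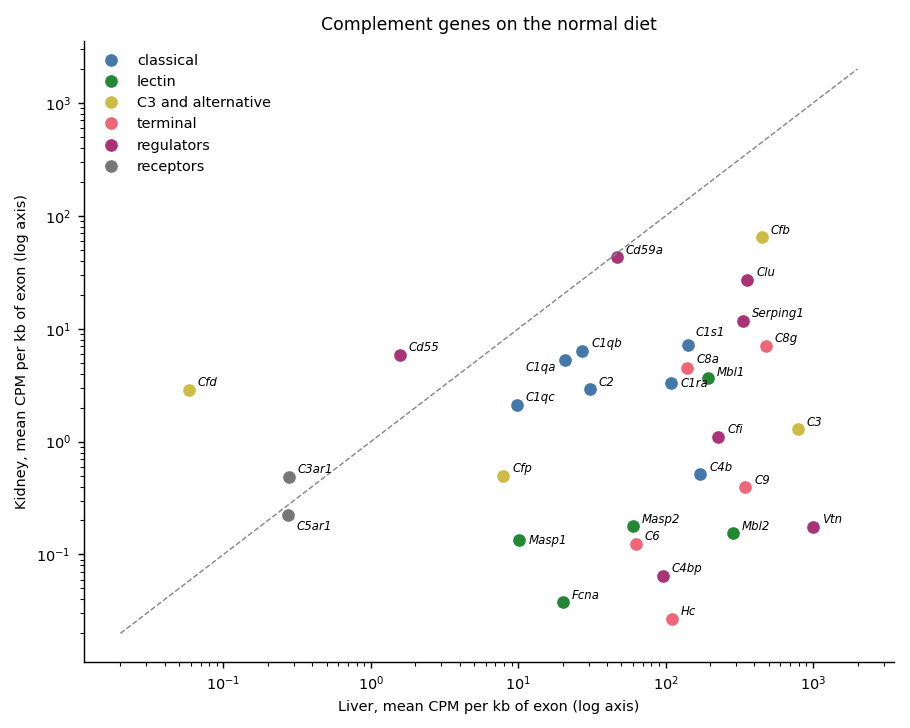
Mean level per kilobase of exon on the normal diet in liver (n = 4, horizontal) and kidney (n = 3, vertical), both on log axes in CPM per kilobase, for the 30 members with a row in both tables; colours mark the pathway and the dashed line marks equal levels. Cd55 and C3ar1 lie above the line, Cd59a is close to it, and C3 and C9 lie far below it. Mbl2, Fcna, Hc, C6, C4bp and Vtn passed the filter only in liver and Cfd only in kidney. No tissue difference is read from the distance of these genes from the line.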

How the data were processed

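Total RNA of liver and kidney was made into SMARTer mRNA libraries, per the labels' protocols. STAR 2.5.3a, Partek 7.0, DESeq2 and the mm10 build are named, with no role, per the submitters' processing notes. The authors deposited estimated counts per gene (expected counts from Partek's expectation-maximisation quantification, per the names of the tables) and normalized values, a linear signal for each gene. The number of per-sample columns not used was 0.

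Counts were rounded and tested with edgeR 4.0.16 in R 4.3.3 (TMM scaling, filterByExpr, quasi-likelihood, Benjamini-Hochberg over all genes), in each tissue apart without a replicate block, and in 1 fit of all 14 libraries for the interaction and the tissues. DESeq2 1.42.0 and limma 3.58.1 (on log2 of the deposited normalized values plus 1 or 0.1) were alternatives, with other scalings and filters and the omission of each library. The fits were tested on simulated counts. The members and the gene lists were chosen with earlier results of these data known. All 31 members were named, with other complement genes of at least 50 mean counts at an unadjusted p under 0.05, and Saa1, Orm1, Lcn2 and marker genes beside a result. Some of the other complement genes that met this rule are not reported here. Gene positions and exon lengths came from GENCODE M21, and start windows from RefSeq. Spread between libraries, more than counting error, limits most members. Where no read was counted, up to 3 counts remain possible; this bound covers counting error only, since no molecular identifiers are named in the labels.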

Additional observations from a re-analysis of the deposited data

Results flagged for a closer look

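Within 62 groups of 4 liver values (31 members in each diet), 5 held a library that stood apart from its group by Dixon's 95% criterion, where chance alone flags about 1 in 20 groups, or 3.1 here. Normal diet library 4 was the high one for Cfb (2004 CPM, others 924 to 1095) and for Clu (1765 CPM, others 992 to 1122). HS7 was the high one for Mbl1 (194 CPM, others 145 to 151), and this is the library that brings the high salt group next to the lowest normal diet value. HS8 was the high one for Cfd (3.96 CPM, others 0.0902 to 0.312), with 226 counts. Normal diet library 2 was the high one for Cfd among controls (0.167 CPM, others up to 0.0243), a difference of a few counts.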

How the results depend on the processing

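The liver count of called members (1, C9) stayed at 1 under RLE and upper quartile scaling, no filter, a minimum of 10 counts per library, removal of mitochondrial genes and limma with either pseudocount. It was 4 with DESeq2 (C8b, C9, Clu and Mbl1), which called 1084 genes in all against 152 in edgeR's test, and 0 with all 14 libraries in 1 fit, with HS5 and HS6 summed, and without normal diet libraries 1 and 2, fits that called 260, 12 and 52 genes in all. Leaving out 1 library gave 0 to 3 members, among 12 (without HS6) to 765 (without normal diet library 3) genes in all. C9 kept a negative fold change in each of these. The kidney and interaction counts were 0 in every alternative. The tissue count of 27 became 17 of 19 members under the filter of at least 10 counts in every library, which tests fewer genes, and 27 to 28 with 1 library left out. That count of 27 includes the members that entered the fit through 1 tissue only, whose calls follow from the filter. The causes of the other changes were not tested.

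Signs turned only for members that were not called. In liver C1s1 (-0.014) was at 0.0081 with at least 10 counts in every library and 0.017 with upper quartile scaling, and Masp1 (0.17) was at -0.15 without normal diet libraries 1 and 2. With 1 liver library left out, the range was -0.54 to 0.052 for C1qc, -0.078 to 0.054 for C1s1, -0.81 to 0.0046 for C3, -0.44 to 0.21 for C3ar1, -0.66 to 0.074 for C4b, -0.39 to 0.083 for Cd55 and -0.24 to 0.077 for Mbl2. With 1 kidney library left out it was -0.10 to 0.48 for C1qa, -0.58 to 0.19 for C1qb, -0.23 to 0.30 for C1qc, -0.21 to 0.27 for C1s1, -0.35 to 0.41 for C4b, -0.36 to 0.28 for C8g, -0.64 to 0.42 for C9, -0.020 to 0.22 for Cfb, -0.78 to 1.31 for Cfd, -0.13 to 0.29 for Cfi, -0.67 to 0.066 for Cfp, -0.33 to 0.089 for Clu and -1.23 to 0.12 for Masp2. Kidney Cfd (0.13) was at -0.20 and -0.24 with limma and pseudocounts of 1 and 0.1, and C3ar1 between tissues (-0.29) was at 0.15 without normal diet liver libraries 1 and 2.

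Kidney libraries share numbers across diets. Same-numbered libraries deviated together in the first (r = 0.53) and second (r = 0.51) but not in the third (r = -0.15), so the numbers were not taken as pairs. With a replicate block in kidney 0 members were called, the member median was 0.038, C8g was at 0.0024 and Cfd at -0.033. The liver columns carry no shared numbers, so no block was possible there.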
